A study of Drosophila melanogaster with 12 samples.

Results

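DNA transposons move as DNA, by excision and reinsertion or by a rolling-circle copy, and the remains of their past insertions are scattered through the Drosophila genome. The copies described here were taken by name from the transposable element rows of the table: every annotated insertion of INE-1, 1360, pogo, hobo (named H), P, S, S2, Tc1, Tc1-2, Tc3, Bari1, Bari2, HB, transib1 to transib4, mariner2, looper1, hopper, hopper2, FB and NOF. This gave 3251 copies of 22 elements, out of 5736 annotated insertions and 24278 rows in all. INE-1 supplied 2234 copies and 1360 supplied 491, and no row carried the name P.

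Each library was made from the head of 1 female Drosophila melanogaster at an age of 21 days, and each of 4 groups had 3 libraries. The flies were either SIRT6 knockouts (KO) or w1118, a white-eyed laboratory strain. From eclosion they ate food with 100 µM of 680C91, which blocks TDO2, the enzyme that opens the tryptophan ring, dissolved in dimethyl sulfoxide (DMSO), or with DMSO alone. The labels used here do not say how the knockout allele was made or whether both strains share a genetic background, so the loss of SIRT6 and a difference between strains cannot be told apart. SIRT6 is a NAD-dependent deacylase of chromatin, and KO below means the libraries labelled KO.

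INE-1 is a short element without coding capacity, related to Helitrons, and it is the most numerous transposable element of this genome. 1360 carries terminal inverted repeats, is related to the P element and is concentrated in heterochromatin and on chromosome 4, where it has been studied as a target of silencing. pogo, Tc1, Tc3, Bari, S and mariner elements belong to the Tc1/mariner superfamily, hobo to the hAT superfamily, looper1 to the piggyBac superfamily and the transib elements to the superfamily related to the RAG1 recombinase. FB (foldback) elements are made of long inverted repeats, and NOF is a coding element found within some FB copies. In the germline and the soma, small RNAs and heterochromatin hold such elements down, and most of their copies are truncated and cannot move by themselves.

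The libraries held 24633582 to 44545726 estimated counts. Sirt6 itself did not separate the genotypes, with 70 to 90 counts in KO and 47 to 147 in w1118 (log2 change -0.01, edgeR adjusted p = 0.971), so the genotype labels could not be checked by the level of its transcript. Eye and neuron markers were high in every library, with summed levels of 15725 to 26119 CPM for photoreceptor markers and 1323 to 2107 CPM for neuron markers. CPM is the usual depth-normalised count, here with library sizes scaled by TMM factors from gene rows. Female germline markers summed to 27.9 to 38.9 CPM and male germline markers to 0.694 to 3.20 CPM. Muscle markers summed to 874 to 1191 CPM in KO and 341 to 992 CPM in w1118, and haemocyte markers to 155 to 323 CPM and 296 to 843 CPM. A pair of w1118 libraries stood apart. Replicate 2 with DMSO had 0.417% of its counts in yolk protein genes and replicate 2 with inhibitor 1.87%, against 18.2% to 21.2% in the other w1118 libraries and 9.57% to 13.1% in KO. The genotype effects of elements and of the copies described singly are mostly given with and without these libraries. Breakdowns of called copies by element, place or length, host genes, neighbouring copies, correlations and silencing genes are given with all 12 libraries only. The part that fat body RNA has in any difference was not tested.

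Copies of DNA transposons and INE-1 took a small share of each library. They held 0.0952% to 0.141% of the counts in KO, and 5 w1118 libraries held 0.0717% to 0.169%. The remaining one, w1118 with inhibitor replicate 2, had 0.441%. All transposable element rows together held 3.81% to 5.03% of the counts in KO and 1.77% to 3.11% in w1118, without overlap. These rows include entries that are not annotated insertions. The DNA transposons and INE-1 were 2.27% to 3.02% of the counts of those rows in KO and 3.21% to 14.2% in w1118. The share they took of all counts overlapped between the genotypes, while that of all transposable element rows did not.

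Summed over copies, 3 elements made up most of the level. The median over the 12 libraries was 354 CPM for INE-1, 220 CPM for 1360 and 145 CPM for FB, and these together gave a median of 65.1% of the level of all 22. H followed at 59.8 CPM, HB at 54.5 CPM and S at 49.6 CPM, and looper1 was lowest at 1.48 CPM. Per kilobase of annotated copies the order changed. FB had a median level of 2.26 CPM per kb and Bari2 of 2.18, followed by NOF at 1.54 and hopper at 1.43. INE-1 was at 0.645 CPM per kb, 1360 at 0.478 and transib1 at 0.137. For some elements 1 copy carried most of the level: outside w1118 with inhibitor replicate 2, transib1{}1717 gave 96.3% of transib1, Bari2{}1537 84.9% of Bari2 and transib4{}3834 74.5% of transib4. For H the share differed between genotypes: H{}84 gave 25.1% to 31.8% of it in KO and 81.9% to 89.3% in those 5 w1118 libraries. INE-1 and 1360 were spread more evenly, with at most 7.58% and 4.09% from any copy.

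**Figure D1:**
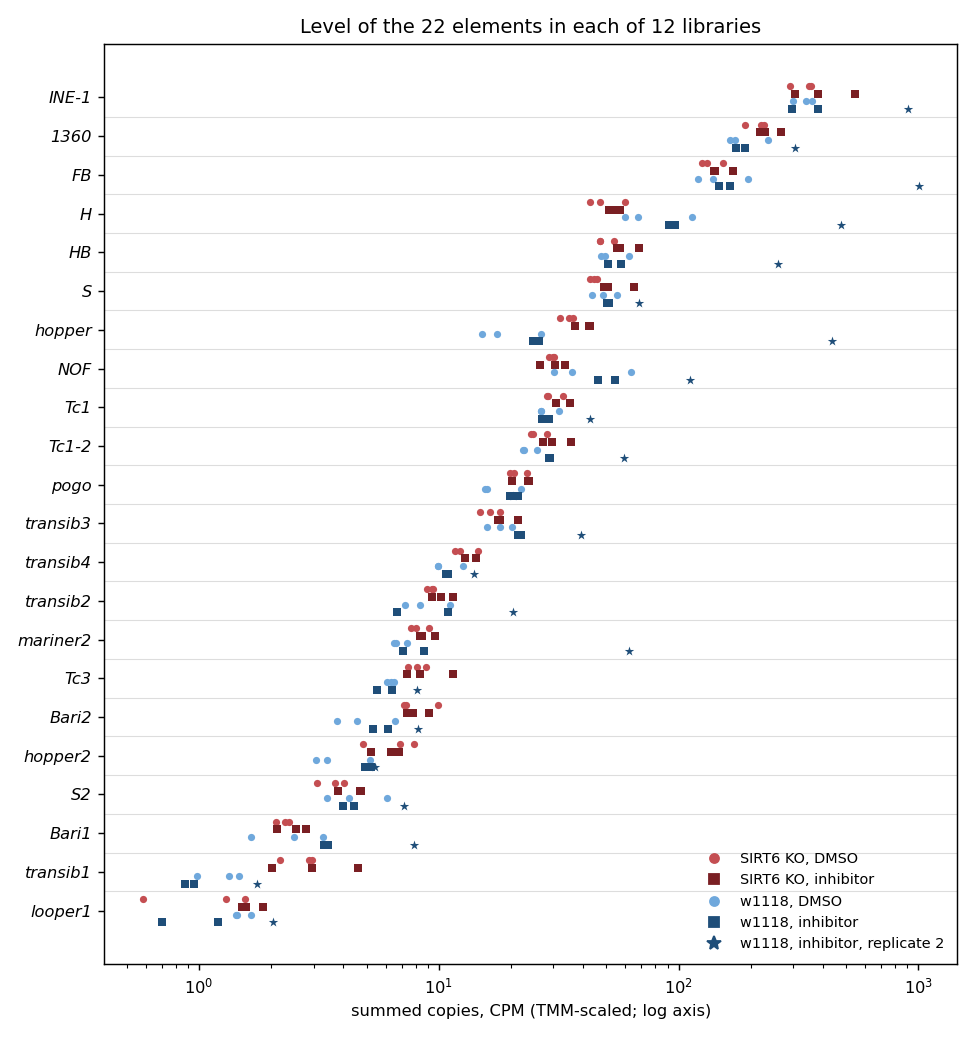
Level of each of the 22 elements in each library, as the sum over its copies in CPM on a log axis, with 1 point per library, colours for the 4 groups and a star for w1118 with inhibitor replicate 2. The star lies highest for 16 of the 22 elements, and for H and transib1 the KO and w1118 points do not overlap.

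Between genotypes, transib1 was the only element of the 22 called higher in the libraries labelled KO when all 12 libraries were used. Its copies summed to 2.87, 2.97 and 2.18 CPM in KO with DMSO and to 2.01, 2.96 and 4.61 CPM in KO with inhibitor. In w1118 the sums were 0.976, 1.33 and 1.46 CPM with DMSO and 0.876, 1.74 and 0.955 CPM with inhibitor. Every KO library lay above every w1118 library. Of the 3 transib1 copies, 1 had enough counts for a test of its own: transib1{}1717, annotated over 11981 bp. It gave most of the transib1 sum, so the element result is largely that of 1 copy. The genotype effect averaged over treatments was 1.25 on the log2 scale (SE 0.248, adjusted p = 0.00994, edgeR's quasi-likelihood test with Benjamini-Hochberg adjustment over all 14311 rows tested). Without w1118 with inhibitor replicate 2 it was 1.51 (adjusted p = 0.00342), and without both w1118 libraries that stood apart 1.53 (adjusted p = 0.00306). In bulk RNA of a head, fewer cells that make an RNA and less RNA per cell cannot be told apart, and the same holds for a rise.

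H, the hobo element, had lower sums in the libraries labelled KO. It summed to 47.2, 42.9 and 59.6 CPM in KO with DMSO and to 51.3, 53.8 and 57.1 CPM in KO with inhibitor. The w1118 sums were 59.9, 114 and 67.9 CPM with DMSO and 96.5, 477 and 91.0 CPM with inhibitor. All KO libraries lay below all w1118 libraries, the nearest being 59.6 and 59.9 CPM. Over the 12 libraries the averaged effect was -1.36 (SE 0.401), and it missed the threshold at an adjusted p of 0.0547. It passed without w1118 with inhibitor replicate 2, at -0.67 (SE 0.170, adjusted p = 0.0333), and without both libraries that stood apart, at -0.50 (SE 0.0930, adjusted p = 0.00476). It also passed without w1118 with inhibitor replicate 1 (-1.49, adjusted p = 0.0384) or replicate 3 (-1.50, adjusted p = 0.0345), and DESeq2 called it with all 12 libraries (adjusted p = 0.00544).

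The H sum held opposite differences. Its highest copy, H{}84, was lower in KO. The other H copies together summed to 31.5 to 43.3 CPM in KO and to 10.9 to 12.5 CPM in 5 w1118 libraries, with 380 CPM in w1118 with inhibitor replicate 2. Summed without H{}84, the averaged effect was -0.06 (SE 0.729, adjusted p = 0.968, edgeR) over all 12 libraries. It was 1.74 (SE 0.0960, adjusted p = 1.02e-05, edgeR) without that library and 1.77 (SE 0.0969, adjusted p = 1.34e-05, edgeR) without both that stood apart, settings chosen after seeing the data. Most of that level in KO lay on H copies annotated at 1406 bp, of which there are 19. These summed to 19.5 to 31.7 CPM in KO and to at most 0.186 CPM in w1118. The copy that held most of it, named here after its values were seen, differed between libraries. It was H{}394 in KO with DMSO replicates 1 and 3, H{}386 in replicate 2, and H{}354, H{}1414 and H{}1453 in KO with inhibitor replicates 1, 2 and 3. How the authors divided reads among such copies is not given in the sources used here, so this level is read here for the 1406 bp copies together.

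NOF passed the threshold as lower in KO, but when 1 library was left out it still passed only without w1118 replicate 3 of either treatment. Its copies summed to 26.4 to 33.6 CPM over the 6 KO libraries and to 30.2 to 111 CPM over the 6 w1118 libraries, with overlap. The averaged effect was -0.88 (SE 0.243, adjusted p = 0.0422). It was -0.56 (adjusted p = 0.0794) without w1118 with inhibitor replicate 2 and -0.37 (adjusted p = 0.0131) without both. transib1 and NOF were the 2 of 22 elements called in the average, where 11.6% of all rows tested were called (5.61% higher and 5.99% lower). Called elements were 0 of 22 with DMSO alone or with inhibitor alone, where 4.47% and 3.79% of rows were. At an unadjusted p under 0.05, 7 elements passed in the average, 3 with DMSO and 8 with inhibitor. These were 12, 8 and 8 without w1118 with inhibitor replicate 2, and 14, 11 and 9 without both. The share of all rows under that unadjusted p is not given here. The median log2 change of the 22 was -0.11, against -0.07 for all rows.

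The libraries that stood apart decided how many further elements passed. Without w1118 with inhibitor replicate 2, 5 of 22 elements passed (11.9% of all rows). Bari2 was then higher in KO by 0.68, Tc3 by 0.56, hopper by 0.81 and transib1 by 1.51 on the log2 scale, and H was lower. Without both, 12 passed, 10 higher and 2 lower, while 29.5% of all rows passed, 16.9% higher and 12.6% lower. The further elements were 1360, at 0.44 (SE 0.0834, adjusted p = 0.00496), Tc1 at 0.29, hopper2 at 0.72, mariner2 at 0.32, pogo at 0.36 and transib4 at 0.41, all higher in KO. INE-1 was at 0.25 (adjusted p = 0.315), FB at 0.09 (adjusted p = 0.489) and S at 0.02 (adjusted p = 0.868), and these did not pass. For hopper the direction depended on that library: its sum was 31.9 to 42.5 CPM in KO, 15.1 to 26.8 CPM in the other 5 w1118 libraries and 438 CPM in w1118 with inhibitor replicate 2. The averaged effect for hopper was -0.61 with it and 0.81 without it.

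In w1118 with inhibitor replicate 2, single copies stood far above the other libraries. There, 32 copies reached at least 1 CPM and over 10 times the highest of the other 11 libraries, against 0 to 2 copies in each other library. They held 63.2% of the level of all DNA transposon and INE-1 copies in that library. FB{}Cip4[FB] was at 830 CPM there and at most 10.8 CPM elsewhere, hopper{}634 at 411 against 5.23 CPM, H{}1735 at 367 against 5.44 CPM, INE-1{}2226 at 144 against 0.986 CPM and HB{}3256 at 137 against 0.801 CPM. The 32 copies belonged to 11 elements, 18 of them to INE-1 and 4 to 1360. Of the 32, 17 lay in introns, 14 outside genes and 1 in a coding exon. The library did not differ in these copies alone. By the same rule 216 gene rows stood apart in it, against 1 to 6 in each other library, and 21 other transposable element rows, against 0 to 4. piwi, which encodes a nuclear Argonaute protein of the piRNA pathway, was at 232 CPM there and at most 0.989 CPM in the other 11. What these features share was not tested.

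**Figure D2:**
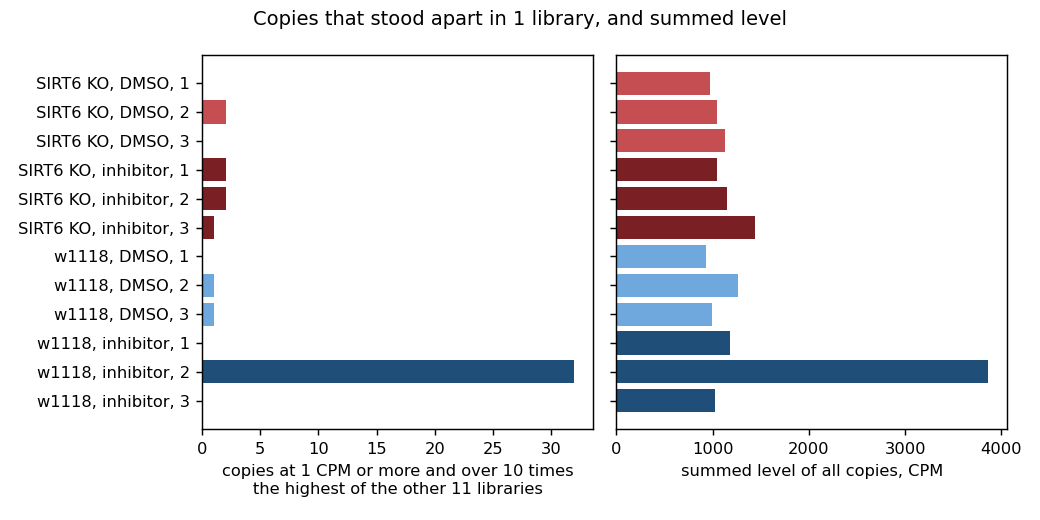
Left, number of DNA transposon and INE-1 copies in each library that reached 1 CPM and over 10 times the highest of the other 11 libraries; right, summed level of the 3251 copies in CPM. Bars start at 0; w1118 with inhibitor replicate 2 had 32 such copies and a summed level of 3864 CPM, against 927 to 1441 CPM elsewhere.

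With all 12 libraries, single copies were called between the genotypes about as often as all rows of the table. More of them were higher than lower in KO. Of the 3251 copies, 726 had 0 counts in every library and 2525 had at least 1 count. A filter on low counts left 694 copies for the test, so the counts below describe those and not all members. The averaged genotype effect passed for 110 copies, 79 higher and 31 lower in KO. This is 15.9% of the 694 tested, and 14.0% of all 16289 rows passed in that comparison, 7.10% higher and 6.94% lower. The median log2 change of the 694 was 0.19, and that of all rows -0.06. Of the other transposable element rows, a set not limited to annotated insertions, 487 of 1439 tested were called, 280 higher and 207 lower. Without w1118 with inhibitor replicate 2, 126 of 742 copies tested passed (17.0%, beside 14.3% of all rows), and 100 of the 110 were among them. Without both libraries that stood apart 184 of 713 passed, 103 of the 110 among them. This is 25.8% of the copies tested, below the 29.8% of all rows that passed in that fit.

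The treatments gave comparisons of KO with w1118 on different libraries. Both were taken from 1 fit with a shared estimate of the spread and shared scaling, so their calls were not independent. With DMSO 57 copies passed, 39 higher and 18 lower, where 6.49% of all rows passed (3.44% higher, 3.05% lower). With inhibitor 52 passed, 32 higher and 20 lower, where 5.46% of all rows passed (3.03% higher, 2.42% lower). Both counts depended on single libraries. With 1 library left out, the DMSO count ran from 30, without KO with DMSO replicate 3, to 91, without w1118 with DMSO replicate 2, and leaving out any of the other DMSO libraries gave 32 to 37. The inhibitor count ran from 35, without KO with inhibitor replicate 3, to 80, without w1118 with DMSO replicate 2. The share of all rows in these runs is not given here. Without both libraries that stood apart, 110 of 713 copies tested passed with DMSO and 80 with inhibitor. These are 15.4% and 11.2% of the copies tested, where 19.1% and 13.6% of all rows passed. With all 12 libraries the comparisons shared 37 copies, 64.9% of the DMSO list and 71.2% of the inhibitor list. All 37 changed in the same direction. The same overlap over all rows is not given here. Of the 57 copies called with DMSO, 56 had the same sign with inhibitor. Across the 694 copies, log2 changes in the 2 comparisons correlated with a Pearson r of 0.618, and across genes with 0.275. Both are descriptions across features, and copies of an element share sequence and are not independent.

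**Figure D3:**
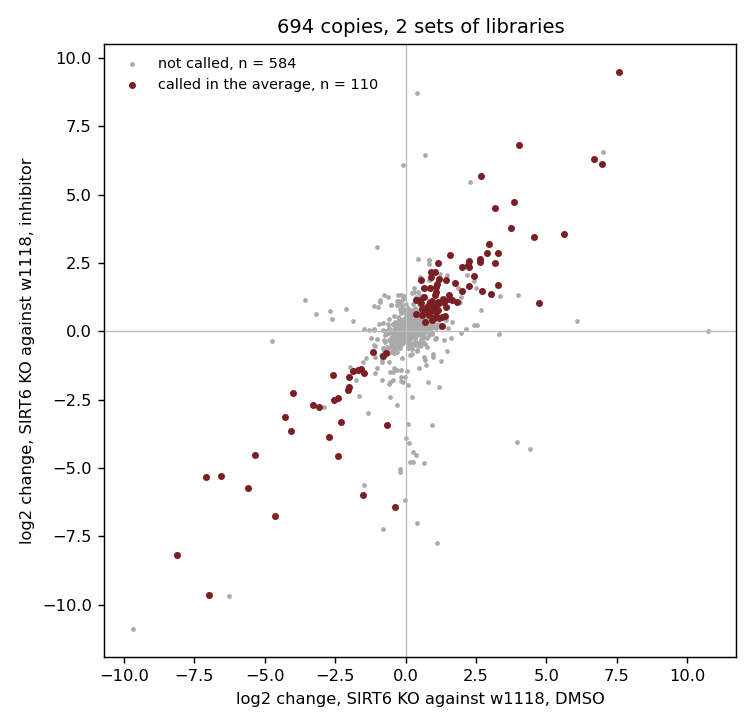
Log2 change of the 694 tested copies between KO and w1118 with DMSO (horizontal) and with inhibitor (vertical); the 110 copies called in the average are dark. Of the 57 copies called with DMSO, 56 have the same sign on both axes.

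Of the 694 copies, 71 had no overlap between the 6 KO and the 6 w1118 libraries, 50 higher and 21 lower in KO, and 9.47% of all rows tested had none (4.95% higher, 4.51% lower). Among copies that were also called and averaged at least 1 CPM, 33 remained. Positions are those of the annotated genome, and whether each insertion is present in either strain was not tested. A rise or fall below is a difference in counts given to that annotated copy. The 8 with the largest rise and the 8 with the largest fall are described next, and for each the genotype effect also passed without w1118 with inhibitor replicate 2 and without both libraries that stood apart.

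1360{}1515, on chromosome 4 outside genes (chr4:456757-457862, 1106 bp, plus strand), was the copy with the widest rise. It was at 2.20, 2.40 and 2.20 CPM in KO with DMSO and at 2.38, 1.82 and 3.03 CPM in KO with inhibitor. In w1118 it had 1 count in the 6 libraries together, in DMSO replicate 3, against 538 counts in KO. The pooled ratio was 496, with a 95% counting interval of 88.7 to 19629 that covers counting error only (edgeR adjusted p = 1.55e-05). Only 1360{}1515 among these copies had almost no counts in w1118, with at most 3 in each w1118 library and at least 10 in each KO library. Its annotated position overlaps 1 other transposable element row, so reads may be shared with that row.

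1360{}1270 lies in an intron of pyd, which encodes a scaffold protein of cell junctions (chr3R:8894928-8896023, 1096 bp). It was at 1.59, 1.59 and 2.14 CPM in KO with DMSO and at 2.87, 2.49 and 2.76 CPM in KO with inhibitor, and at 0 to 0.129 CPM in w1118 (log2 change 5.41, SE 0.388, adjusted p = 1.43e-05). The transcript of pyd was at 291 CPM ± 27.0 in KO and 299 CPM ± 32.6 in w1118 (SD, n = 6 each, adjusted p = 0.808 in edgeR). The copy passed the test and its gene did not. pogo{}812 on 2R was at 1.94 to 3.48 CPM in KO and 0 to 0.570 CPM in w1118 (log2 change 4.01, SE 0.647), and the highest w1118 value was that of inhibitor replicate 2. 1360{}6332 and 1360{}6346, both on 2R outside genes, rose by 4.29 (SE 0.638) and 2.64 (SE 0.221).

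The S element gave several rises in copies of nearly equal length. S{}8, in an intron of CG43867 on the opposite strand (chrX:906756-908489), was at 4.81, 3.33 and 6.07 CPM in KO with DMSO and at 5.36, 6.19 and 3.69 CPM in KO with inhibitor. In w1118 it was at 0.325, 0.535 and 0.186 CPM with DMSO and at 0.263, 0.570 and 0.277 CPM with inhibitor, a log2 change of 3.75 (SE 0.320, adjusted p = 4.35e-05). S{}967, in an intron of Srg3 on the opposite strand (chr3L:9443566-9445297), was at 3.70 to 5.34 CPM in KO and 0.611 to 1.39 CPM in w1118 (log2 change 2.29, SE 0.204). Of 26 S copies tested 6 were called. The 5 that rose, S{}8, S{}967, S{}173, S{}758 and S{}6581, measured 1731 to 1735 bp, and the 1 that fell, S{}447, 1584 bp. The S copies not called had a median length of 1730 bp. Near-identical copies share reads, and how the authors' counting divided those reads is not given in the sources used here. S{}6581 is annotated on the Y chromosome, which females do not normally carry, and it still had 0.060 to 0.347 CPM in KO and at most 0.036 CPM in w1118. The 59 copies on Y summed to 1.59 to 3.17 CPM, 0.0820% to 0.238% of the level of all the copies. Whether these reads came from near-identical copies elsewhere was not tested.

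INE-1{}5417 rose within Hr39, which encodes a nuclear receptor (chr2L:21241621-21242151, intron, opposite strand). It was at 4.06, 3.39 and 4.95 CPM in KO with DMSO and at 3.63, 4.21 and 4.43 CPM in KO with inhibitor. In w1118 it was at 0.397, 0.830 and 0.717 CPM with DMSO and at 0.759, 0.605 and 0.771 CPM with inhibitor (log2 change 2.58, SE 0.190, adjusted p = 1.58e-05). The other tested copies of these elements in Hr39, HB{}484 and Tc1-2{}5474, also rose, by 1.22 (SE 0.307) and 0.96 (SE 0.187). The level of Hr39 itself was 39.1 CPM ± 2.82 in KO and 32.5 CPM ± 4.41 in w1118 (SD, n = 6 each), a log2 change of 0.27 that missed the threshold (adjusted p = 0.0922, edgeR).

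**Figure D4:**
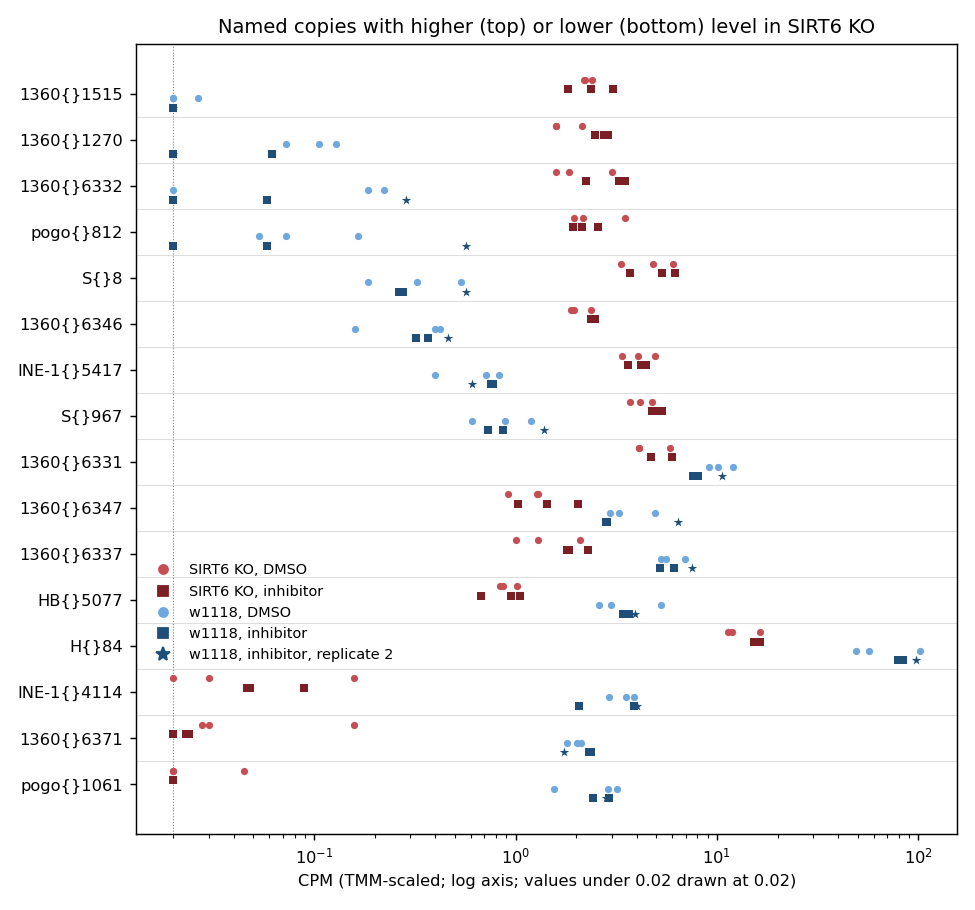
Level of the 8 copies with the largest rise (top) and the 8 with the largest fall (bottom) in each library, in CPM on a log axis with values under 0.02 drawn at 0.02 and a star for w1118 with inhibitor replicate 2. KO and w1118 points do not overlap for any of the 16, and 1360{}1515 and pogo{}1061 are at or near 0 in one genotype.

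The copies that fell were led by pogo{}1061, in an intron of rdgC on the same strand (chr3L:20257385-20258451, 1067 bp); rdgC encodes the phosphatase that acts on rhodopsin. It was at 1.55, 3.21 and 2.89 CPM in w1118 with DMSO and at 2.92, 2.81 and 2.43 CPM in w1118 with inhibitor. In KO it had 2 counts in the 6 libraries together, against 584 in w1118, a ratio of 317 with a 95% counting interval of 87.3 to 2621 (edgeR adjusted p = 4.62e-05). The rdgC transcript was at 133 CPM ± 9.08 in KO and 105 CPM ± 20.7 in w1118 (SD, n = 6 each). The log2 change of 0.35 was in the other direction and did not pass (adjusted p = 0.0855, edgeR).

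1360{}6371, outside genes on 3L (chr3L:24928350-24929423), was at 0 to 0.157 CPM in KO and 1.74 to 2.36 CPM in w1118 (log2 change -5.69, SE 0.412). INE-1{}4114, in an intron of the tetraspanin gene Tsp39D (chr2L:21346329-21347214), was at 0 to 0.157 CPM in KO and 2.06 to 4.02 CPM in w1118 (log2 change -5.66, SE 0.495, adjusted p = 5.08e-05). Tsp39D rose, from 31.9 CPM ± 4.82 in w1118 to 42.6 CPM ± 3.18 in KO (SD, n = 6 each, log2 change 0.42, adjusted p = 0.0178, edgeR), so here the copy and its gene changed in opposite directions. HB{}5077, 1360{}6337 and 1360{}6347, all on 2R, fell by 2.02 (SE 0.199), 1.84 (SE 0.192) and 1.55 (SE 0.276) on the log2 scale.

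H{}84 was the hobo copy that fell. This copy of 2981 bp lies in an intron of nAChRalpha3, which encodes a subunit of the nicotinic acetylcholine receptor, on the opposite strand (chrX:8293303-8296283). It was at 11.9, 11.3 and 16.3 CPM in KO with DMSO and at 16.3, 15.3 and 16.1 CPM in KO with inhibitor. In w1118 it was at 49.1, 102 and 56.7 CPM with DMSO and at 84.0, 97.1 and 79.2 CPM with inhibitor. The highest KO library was at 16.3 CPM and the lowest w1118 library at 49.1 CPM. The log2 change was -2.42 (SE 0.186, adjusted p = 2.07e-05), and -2.11 (adjusted p = 8.54e-06) without both libraries that stood apart. nAChRalpha3 was at 34.0 CPM ± 3.32 in KO and 42.9 CPM ± 28.0 in w1118 (SD, n = 6 each), a log2 change of -0.26 that did not pass (adjusted p = 0.551, edgeR). Of the 13 H copies tested, H{}84 was the only one called with all 12 libraries. The 1406 bp copies, whose level lay on different copies in different libraries, were higher in KO as a sum. How reads were divided among H copies is not given in the sources used here. Whether all reads counted for H{}84 came from this position was not tested.

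The copies with the highest mean level were set mostly by w1118 with inhibitor replicate 2. FB{}Cip4[FB], in an intron of Cip4 (chr3L:4361048-4361901), was at 1.98 to 5.14 CPM in KO and 4.62 to 10.8 CPM in 5 w1118 libraries. Its averaged effect was -3.74 (SE 1.04, adjusted p = 0.0384) with all libraries and -1.18 (adjusted p = 0.00917) without w1118 with inhibitor replicate 2. H{}1735 and hopper{}634 were at 3.35 to 5.44 CPM and 3.26 to 5.23 CPM in KO and at 2.60 to 4.65 CPM and 1.45 to 4.96 CPM in those 5 w1118 libraries. hopper{}634 lies in an intron of Nipped-A on 2R. Neither passed with all libraries (adjusted p = 0.144 and 0.185) or without that library (adjusted p = 0.390 and 0.130). Without both libraries that stood apart, hopper{}634 passed as higher in KO (0.65, adjusted p = 0.00434, edgeR) and H{}1735 did not pass (0.33, adjusted p = 0.104). INE-1{}5444, of 70 bp in an intron of Mondo (chr2L:21289891-21289960), varied widely within each group. It was at 1.56, 10.5 and 3.48 CPM in KO with DMSO and at 4.39, 27.8 and 91.7 CPM in KO with inhibitor. In w1118 it was at 15.1, 37.7 and 47.9 CPM with DMSO and at 46.1, 17.6 and 9.99 CPM with inhibitor. The genotypes overlapped throughout (adjusted p = 0.402).

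A few copies had almost no counts in one genotype, and whether those insertions are present in that strain was not tested. At most 3 counts in each of the 6 libraries of one genotype, with at least 10 in each of the other, was met in KO by 4 copies, hopper{}246, pogo{}916, pogo{}1061 and INE-1{}5919, and in w1118 by 1360{}1515 alone. Over all 24278 rows the same was met by 7 rows (0.0288%) and 6 rows (0.0247%). These copies were chosen by that count, so their change is a description. hopper{}246 (chrX:22439892-22441322) had 0 counts in every KO library and 0.647 to 1.52 CPM in w1118, at least 73.8-fold higher when KO is set to 3 counts over the group. pogo{}916 (chr3L:3051802-3051984) was at 0 to 0.059 CPM in KO and 1.44 to 2.39 CPM in w1118. INE-1{}5919 (chr4:455333-455514) was at 0 to 0.030 CPM in KO and 0.350 to 0.570 CPM in w1118. It ends 1242 bp before 1360{}1515 on chromosome 4, which had almost no counts in the other genotype. Among called copies that follow each other within 10000 bp, 15 pairs were found, 1 of which overlapped: 1360{}1627 lies inside INE-1{}5364 on chromosome 4, so reads of that pair may be shared. In 13 pairs both copies changed in the same direction, and the 2 opposite pairs were that one and 1360{}6331 with 1360{}6332 near Maf1 on 2R.

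The elements differed in how many of their tested copies were called. 1360 had 40 of 146 called, 31 higher and 9 lower, S 6 of 26 (5 higher), hopper 6 of 15 (4 higher) and pogo 6 of 14 (3 higher). INE-1 had 22 of 309 called, 18 higher and 4 lower, and the other 21 elements together 88 of 385. No test of the difference between elements was made, and INE-1 copies are shorter, with a median of 146 bp over all its copies against 1074 bp for 1360. Called copies had a median length of 1105 bp and tested copies not called 759 bp. For 1360 the medians were close, 1106 and 1104 bp. By position, 56 of 207 tested copies outside genes were called, 43 of 433 in introns and 11 of 54 in exons. The share called was 15.1% on 2L, 16.5% on 2R, 17.2% on 3L, 14.5% on 3R, 16.1% on chromosome 4 and 10.8% on X, beside 14.0% of all rows. On Y, which females do not normally carry, 3 of 4 tested copies were called. In the average, 1360{}6449 and S{}6581 were higher in KO and 1360{}6444 was lower. For 1360{}6444 the log2 change was -0.36 with DMSO (adjusted p = 0.749, edgeR). With inhibitor it was -6.42 (adjusted p = 0.00341, edgeR), where every KO library was at 0 CPM. Calls higher in KO outnumbered lower ones on each of these chromosomes except 2L, where 5 of 86 tested copies were higher and 8 lower.

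Copies within genes may hold reads of the gene's own unspliced or spliced RNA, so each was set beside its gene. Of 110 called copies 54 lay within a gene, and for 53 of them the gene was tested too. The gene was called in the same direction for 9 copies, in the opposite direction for 2 and not called for 42. In the same fit 11.9% of all 14155 genes tested were called, so most genes were not called whether they held such a copy or not. Across 483 tested copies in 247 genes, the log2 changes of copy and gene correlated with a Pearson r of 0.126, as a description across features that share genes. In lncRNA:CR46488, 1360{}1617 rose by 0.95 (SE 0.215) and INE-1{}4837 by 1.40 (SE 0.209), and the host RNA by 1.12 (adjusted p = 0.00190, edgeR). In Maf1, which encodes a repressor of RNA polymerase III, 1360{}6330 rose by 1.44 and 1360{}6331 fell by 0.96, while Maf1 was at -0.35 (adjusted p = 0.0509, edgeR).

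**Figure D5:**
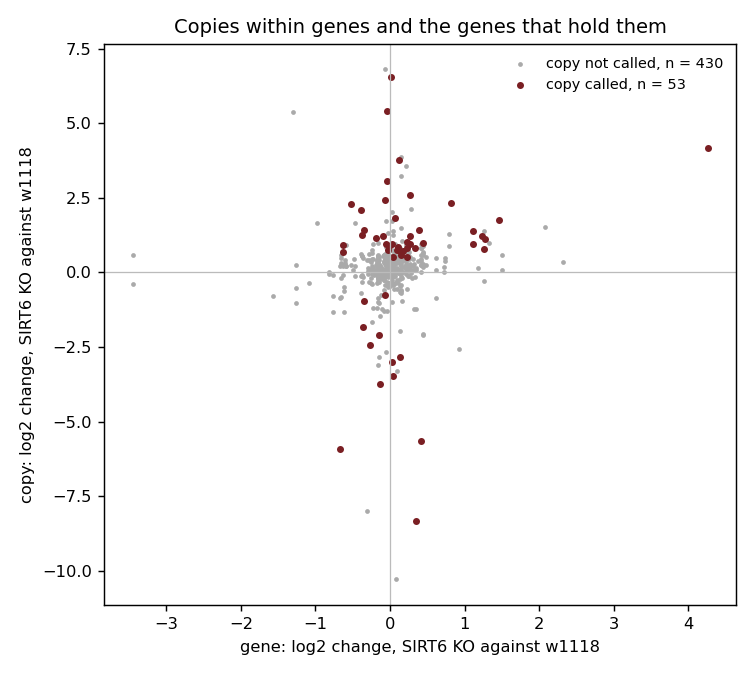
Log2 change between KO and w1118 of 483 tested copies within genes (vertical) against that of the gene (horizontal); the 53 called copies are dark. The gene was not called for 42 of the 53, and 11.9% of all genes tested were called in that fit.

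The inhibitor passed for no element and no copy in either genotype. At the level of copies edgeR called 0 of 694 in KO (0.00614% of all rows), 0 in w1118 and 0 for the interaction with genotype (0% of all rows for both). At an unadjusted p under 0.05 there were 26, 71 and 47 copies. These were 35, 49 and 35 without w1118 with inhibitor replicate 2, and 44, 76 and 42 without both libraries that stood apart. DESeq2 called 3, 3 and 3 copies, and the share of all rows it called is not given here. These copies are named here after their values were seen. In KO they were S{}915, INE-1{}2223 and 1360{}6383, with log2 changes of -18.3, 1.07 and -22.2. In w1118 they were INE-1{}2083, INE-1{}2311 and Tc1-2{}2836, at 1.32, -5.85 and 0.71. For the interaction they were pogo{}1228, 1360{}6383 and 1360{}6444, at -8.34, -22.9 and -5.55. For elements edgeR called 0 of 22 in all 3 comparisons (0.00699%, 0% and 0% of all rows), with 0, 8 and 0 at an unadjusted p under 0.05. Element counts at that p were 1, 1 and 1 without w1118 with inhibitor replicate 2, and 4, 8 and 4 without both. The share of all rows under that p is not given here. The log2 change with inhibitor of INE-1 was 0.30 (SE 0.371) in KO and 0.66 (SE 0.372) in w1118, and that of 1360 0.17 (SE 0.224) and 0.22 (SE 0.224). Without w1118 with inhibitor replicate 2 the w1118 values were 0.04 (SE 0.241) and -0.06 (SE 0.183). A miss of the threshold with 3 libraries a group does not show that the inhibitor had no effect.

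Genes that silence transposons were read from a list of 54 genes of the piRNA, siRNA and heterochromatin pathways. Of the 53 tested, 2 were higher in KO and 3 lower, where 11.6% of all rows passed, and the median log2 change was -0.06 against -0.07 for all rows. squ, a germline piRNA factor, rose from 1.13 CPM ± 0.203 to 4.94 CPM ± 2.66 (SD, n = 6 each, log2 change 2.13, adjusted p = 0.00334, edgeR), and vas, a germline RNA helicase, was higher by 0.77 (adjusted p = 0.0459, edgeR). nxf2, krimp and Hen1, which act in piRNA-guided silencing or piRNA maturation, were lower by 0.46, 0.62 and 0.73 on the log2 scale. Their adjusted p-values in edgeR were 0.0494, 0.0464 and 0.0297. Values without the libraries that stood apart are not given here. None of the 53 passed for the inhibitor in edgeR.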

How the data were processed

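RNA from single heads was depleted of ribosomal RNA and sequenced, per the labels' protocols. The authors deposited 1 table of estimated counts per gene and per transposable element insertion; 39.61% of its values were whole numbers, and all were rounded before testing. Per the submitters' processing notes, Trim Galore 0.6.7, STAR 2.7.9a, Salmon 1.10.1 and the BDGP6 build were used; which of them made the counts, whether strand was used and how reads shared by near-identical copies were divided is not given in the sources used here. Positions and host genes came from the Ensembl 115 annotation of BDGP6.54.

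Counts were tested in R 4.3.3 with edgeR 4.0.16 (glmQLFit and glmQLFTest, all 4 groups in 1 fit, TMM factors from gene rows, filterByExpr with a minimum count of 10), once with copies as rows and once with copies summed per element. P-values were adjusted by Benjamini-Hochberg over all rows of a fit, with a threshold of 0.05. The genotype effect was taken with DMSO, with inhibitor and as their average. The procedure was tested on simulated data. Copies named in the text were the 8 with the largest rise and the 8 with the largest fall among called copies without overlap between genotypes and with a mean of at least 1 CPM, and the 5 with the highest mean; others are named by the counts they belong to. The members and lists were chosen with earlier results of these data known. Alternatives were DESeq2 1.42.0, other scalings, no filter, a replicate block, fewer groups or libraries, and other sums per element.

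Libraries held 24633582 to 44545726 counts, and 3 counts equal 0.0553 to 0.108 CPM. Reads carried no molecular identifiers, so intervals and floors cover counting error only. Each library is 1 fly head, and p-values measure the spread between these flies.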

Additional observations from a re-analysis of the deposited data

Results flagged for a closer look

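For 1360{}1270 the inhibitor effect pointed in opposite directions in the genotypes in every library, higher with inhibitor in KO and lower in w1118. The difference between the log2 ratios of mean levels was 2.931. The w1118 levels rest on 0 to 7 counts per library, and the edgeR interaction test called 0 of 694 copies.

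The table also held 22 entries that carry the names of these elements but are not annotated insertions. They were not among the 3251 copies or the 22 elements. The sets of all rows and of other transposable element rows were not limited to annotated insertions. These 22 entries summed to a mean of 82.58 CPM in KO, with a range of 69.4 to 94.0 CPM. In w1118 they summed to 30.3 to 62.7 CPM, without overlap. This difference was not tested.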

How the results depend on the processing

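The 16 copies named for their rise or fall kept their direction and their side of the threshold in all 306 alternative values listed for them. The hobo copy that fell is also among those with the highest mean, and its values were counted once for each list. These copies were chosen for having no overlap between genotypes, so leaving out libraries tests their direction little. Of all single-item values, with the same repeats, 719 kept both and 42 changed direction. A further 27 moved past the threshold and 23 fell short of it. Counts of calls depended on the libraries and the tool; the cause was not tested. For elements in the averaged genotype effect, 2 calls became 1 with median-of-ratios size factors, 1 with TMM over all rows, 6 with DESeq2, 4 with copies outside genes only, 4 without the highest copy of each element and 12 without w1118 replicate 2 of both treatments, and leaving out 1 library gave 1 to 6. With DMSO, 0 became 2 with DESeq2, 6 without both libraries, 2 outside genes, 1 without the highest copy and 0 to 3 with 1 library left out (1 without w1118 with inhibitor replicate 2, 3 without w1118 with DMSO replicate 2). With inhibitor, 0 became 1 with size factors, 3 with DESeq2, 6 without both, 1 outside genes, 1 without the highest copy and 0 to 2 with 1 library left out. For copies, the averaged effect gave 184 calls without both and 86 to 163 with 1 library left out, DMSO 110 and 30 to 91, and inhibitor 80 and 35 to 80, or 86 with DESeq2. Without both, 29.8%, 19.1% and 13.6% of all rows passed, in the same order. The shares of all rows in most other runs are not given here. DESeq2 gave 3 inhibitor calls in KO, 3 in w1118 and 3 for the interaction. Without both, edgeR gave 1 in KO (pogo{}1228), where 0.0789% of all rows passed. transib1 kept its call in every alternative run; it had no value without its highest copy.

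Directions changed for elements near 0 or set by 1 library. looper1 turned to 0.016 with size factors, 0.013 with TMM over all rows, 0.25 without both and -0.14 to 0.27 with 1 library left out. Without both, FB turned to 0.092, HB 0.17, INE-1 0.25, S 0.024, S2 0.067, Tc1-2 0.21, hopper 0.95, mariner2 0.32, transib2 0.32, hopper{}634 0.65 and H{}1735 0.33. With 1 library left out, HB ranged from -0.70 to 0.099, INE-1 from -0.27 to 0.21, S from -0.12 to 0.063, Tc1-2 from -0.15 to 0.18, hopper from -0.81 to 0.81, mariner2 from -0.82 to 0.29, transib2 from -0.22 to 0.22, hopper{}634 from -2.32 to 0.47 and H{}1735 from -2.55 to 0.22. Outside genes only, Bari1 turned to 0.41, FB 0.087, hopper 0.89, mariner2 0.087 and transib4 -0.17, and without the highest copy hopper 0.73, mariner2 0.21 and transib4 -0.17. H was at -1.50 to -0.67 with 1 library left out. In settings chosen after seeing the data, H without its highest copy turned to 1.74 without w1118 with inhibitor replicate 2 and to 1.77 without both.

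Replicate numbers did not pair the libraries: 3 of 18 same-numbered pairs had a correlation of deviations over 0.1 (range -0.1589 to 0.1696). With the replicate block, 2 elements and 100 copies were called in the average, 45 copies in the genotype effect with DMSO and 45 in that with inhibitor, and 0 for the inhibitor effect. Among single values the block ended only the call of FB{}Cip4[FB] (-2.86, edgeR adjusted p = 0.150). Copies under 3 counts per library, 0.0553 to 0.108 CPM, could not be ranked at this depth.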
